A study of Mus musculus with 2 samples.

Results

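Capillary and angiogenic endothelial cells were taken from single-cell libraries of 1 Dll1+ and 1 Dll1- mouse mammary tumor. A barcode counted as a member when at least 3 of the 6 endothelial genes Pecam1, Cdh5, Emcn, Plvap, Egfl7 and Cd93 were detected, Rgs5 (a pericyte gene) had under 5 unique molecular identifiers (UMIs), and fewer than 2 lymphatic genes (Mmrn1, Reln, Prox1) were detected. Barcodes with 2 or more of the venular genes Selp, Sele, Ackr1 and Vwf were left out. The members were thus chosen by the measured UMIs of these genes, whose own values are description only. The rule gave 552 members among 21702 kept barcodes, 287 of 10581 in the Dll1+ library and 265 of 11121 in the Dll1- library. Both tumors were untreated controls, and live CD45- cells (cells without the surface protein of leukocytes) were sorted from each. The labels attach Dll1+ and Dll1- both to the tumor and, as a cell type, to the sorted CD45- cells. No source used here gives how either was determined, so the names may stand for tumors or for sorted cells, and here they name the libraries. No source used here gives the strain or age of the mice. Each group was 1 library of 1 tumor, so no difference below has a test, a p-value or a replicate check. All intervals are 95% intervals that cover counting error only.

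Capillaries are the vessels where blood and tissue exchange solutes. Their endothelium can carry lipid-handling proteins and, where it is fenestrated, a fenestral diaphragm. When a vessel sprouts, leading tip cells respond to VEGF through the receptor Kdr. They display the Notch ligand Dll4, which restrains their neighbours from becoming tip cells. Angiopoietin-2 (Angpt2) is released by activated endothelium and modulates the Tek receptor, while apelin (Apln) and its receptor Aplnr mark sprouting vessels. Dll1, the gene that gives the tumors their names, encodes another membrane ligand of Notch receptors.

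The members made up 2.71% of kept Dll1+ barcodes (exact interval 2.41% to 3.04%) and 2.38% of kept Dll1- barcodes (2.11% to 2.68%). Antibodies to CD31, the product of Pecam1, were in the same stain as CD45 and Ter119, so the sort can set these shares. Members were 80.8% of the 355 Dll1+ barcodes and 73.4% of the 361 Dll1- barcodes with at least 3 of the endothelial genes. The median member had 5150 UMIs in the Dll1+ library and 3981 UMIs in the Dll1- library. The libraries held 109 barcode sequences in common. Of the members, 4 carried such a sequence and none was a member in both libraries.

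All 6 endothelial genes were detected in 189 Dll1+ members and 179 Dll1- members, which the rule itself favours. Many members also carried epithelial transcripts. Members with at least 4 of the epithelial genes Epcam, Krt8, Krt18, Krt19, Cldn3 and Cldn7 numbered 81 (28.2%) in the Dll1+ library and 48 (18.1%) in the Dll1- library. These members had medians of 14267 and 15158 UMIs and held 60.3% and 46.4% of all UMIs of the members. Of them, 49 Dll1+ and 42 Dll1- members were among the highest doublet scores of their library. Their part in the differences between the libraries was not tested. Levels and lists below are therefore given for epithelial-low members, those with fewer than 2 of the 6 epithelial genes, while the levels within sub-states are given for all members only. The epithelial-low members were 150 Dll1+ cells with 678215 UMIs and 172 Dll1- cells with 676346 UMIs in sum. The VEGF receptor gene Kdr, an endothelial gene outside the rule, was detected in 82.1% of Dll1+ and 71.5% of Dll1- epithelial-low members and in 0.499% and 0.146% of epithelial barcodes, all thinned to 2000 UMIs per cell.

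**Figure D1:**
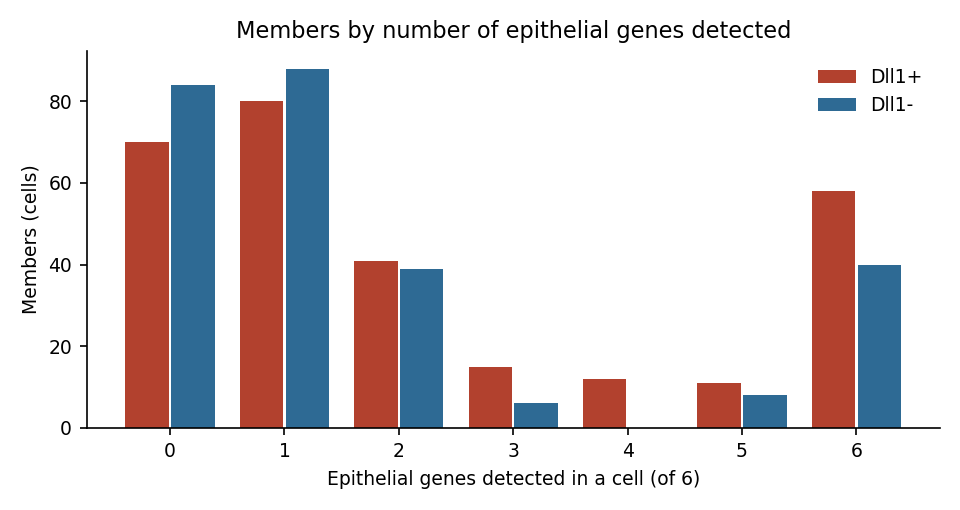
Number of members (vertical axis, cells) by how many of 6 epithelial genes were detected in the cell (horizontal axis), for Dll1+ (left bars) and Dll1- (right bars). Most members had 0 to 2 of these genes, and a second group of 58 Dll1+ and 40 Dll1- members had all 6.

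The endothelial gene threshold cut through barcodes of this mixed kind in the Dll1+ library. Members with exactly 3 endothelial genes numbered 28 and 14 in the Dll1+ and Dll1- libraries, with a median of 6 and 2 epithelial genes. Just outside the threshold, 218 Dll1+ and 67 Dll1- kept barcodes had exactly 2 endothelial genes, with a median of 6 and 5 epithelial genes. On the venular side, 184 Dll1+ and 165 Dll1- members had 1 venular gene detected. That gene was mostly Vwf (von Willebrand factor), which had a UMI in 173 Dll1+ and 134 Dll1- members.

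Among epithelial-low members the Dll1+ library had more transcripts of the sprouting genes Angpt2 and Apln, of the capillary gene Gpihbp1, of the T cell chemokines Cxcl9 and Cxcl10 and of the interferon-induced GTPases Igtp and Iigp1. The Dll1- library had more of Cxcl1, Pdgfa, Cd40 and several NF-kB and immediate early genes. A level is given as CPM, the UMIs of a gene scaled to the UMI total of the cells compared. A log2 ratio divides the Dll1+ level by the Dll1- level after 1 CPM is added to each. Of 4177 genes with at least 50 UMIs in epithelial-low members, 51 (1.22%) were at least 2-fold higher in Dll1+ and 41 (0.982%) were at least 2-fold lower. At 1.5-fold the counts were 319 (7.64%) higher and 198 (4.74%) lower, which is the background for the gene lists below. Over all members, 8154 genes could be compared, and 1029 (12.6%) and 373 (4.57%) passed 1.5-fold in the 2 directions, 406 (4.98%) and 94 (1.15%) passed 2-fold. The median gene had a log2 ratio of 0.08 in all members and 0.03 in epithelial-low members.

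**Figure D2:**
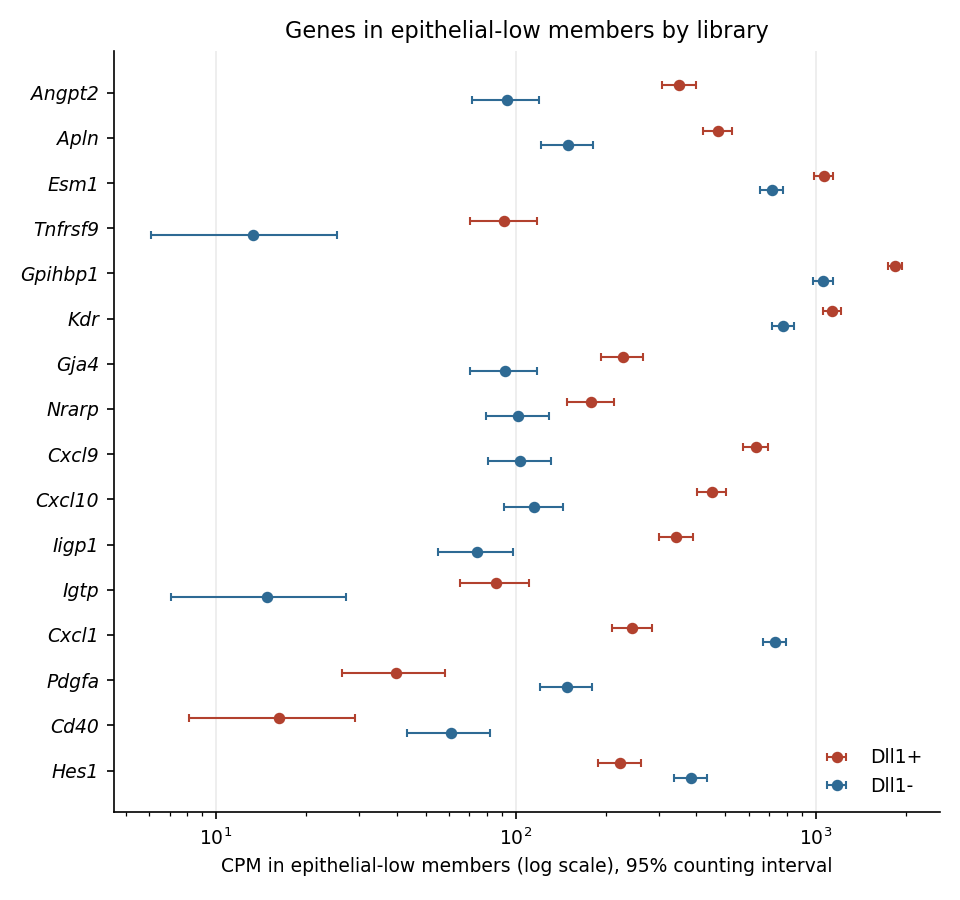
Level of 16 genes in epithelial-low members (horizontal axis, CPM on a log scale) in the Dll1+ library (upper point of each pair) and the Dll1- library (lower point). Bars are exact 95% Poisson intervals, which cover counting error only. Angpt2 stood at 351 and 93.1 CPM in Dll1+ and Dll1-, and Cxcl1 at 245 and 730 CPM.

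Angpt2 and Apln were the tip and angiogenic genes that passed 1.5-fold. Angpt2 stood at 351 CPM in Dll1+ epithelial-low members (238 UMIs, interval 308 to 398) and at 93.1 CPM in Dll1- ones (63 UMIs, 71.6 to 119), a log2 ratio of 1.90 (1.51 to 2.34). In all members the values were 162 CPM and 49.7 CPM. With every epithelial-low member of at least 2000 UMIs thinned to 2000, Angpt2 was detected in 29.3% of 123 Dll1+ cells and 8.46% of 130 Dll1- cells. The 27 Dll1+ and 42 Dll1- shallower cells were left out of thinned shares. Unthinned, the shares were 35.3% and 14.5%. Thinned epithelial barcodes, which should lack the gene, had it in 0.0554% and 0% of cells. Apln stood at 472 CPM in Dll1+ and 149 CPM in Dll1- epithelial-low members, a log2 ratio of 1.65 (1.33 to 2.00), and was detected in 41.5% and 15.4% of thinned cells against 1.66% and 3.31% of epithelial barcodes. Its receptor gene Aplnr did not pass 1.5-fold in these cells, at 351 CPM and 449 CPM, a log2 ratio of -0.36 (-0.61 to -0.11). The lymphatic growth factor Vegfc (82.6 CPM and 63.6 CPM) and Pdgfb, which recruits pericytes (301 CPM and 331 CPM), did not reach 1.5-fold.

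The Angpt2 difference was measured in members with a gene of the venular rule detected, mostly Vwf, and not in the others. Vwf had a UMI in 100 Dll1+ and 90 Dll1- epithelial-low members. In Dll1+ and Dll1- it stood at 656 and 479 CPM in epithelial-low members. Epithelial-low venular cells had less of it, at 551 and 260 CPM, so this split is no measure of a venular identity. In the 106 Dll1+ and 108 Dll1- epithelial-low members with 1 venular gene, Angpt2 stood at 458 CPM (222 UMIs) and 88.4 CPM (40 UMIs), a log2 ratio of 2.36 (1.88 to 2.90). In the 44 Dll1+ and 64 Dll1- epithelial-low members with none, it stood at 82.5 CPM (16 UMIs) and 103 CPM (23 UMIs), a log2 ratio of -0.31 (-1.33 to 0.67). Cxcl9 differed in the same way, at log2 ratios of 3.33 (2.85 to 3.88) with a venular gene and 0.25 (-0.47 to 0.97) without one. Esm1 (0.71 and -0.20), Kdr (0.79 and -0.03), Gja4 (1.43 and 0.09) and Nrarp (1.07 and -0.23) also had lower ratios, or turned sign, in members without a venular gene. Apln (1.99 and 1.01), Gpihbp1 (0.78 and 0.85), Cxcl10 (1.69 and 2.32) and Iigp1 (2.17 and 2.33) were higher in Dll1+ with and without one. Over all members with no venular gene the ratios of Apln and Gpihbp1 were smaller, at 0.02 and 0.15, against 1.10 and 0.62 over all members. Median depths in Dll1+ and Dll1- were 3885.5 and 3269 UMIs with a venular gene and 4182 and 2756 UMIs without one, and the part of depth was not tested. This split was made after the values were seen.

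**Figure D3:**
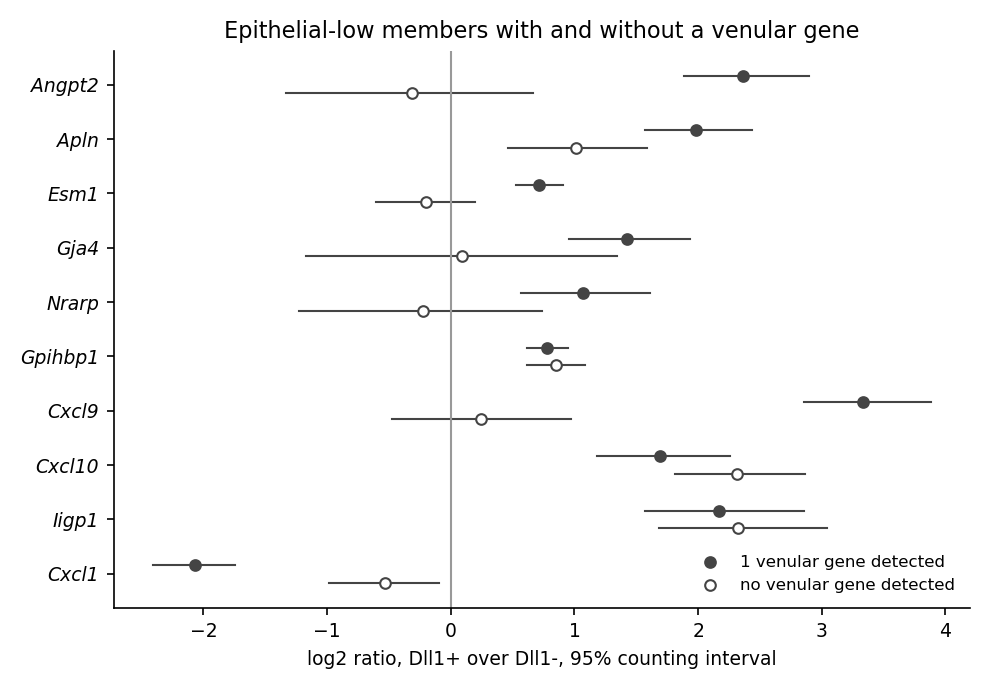
log2 ratio of CPM, Dll1+ over Dll1- (horizontal axis), of 10 genes in epithelial-low members with 1 venular gene detected (filled, upper) and with none (open, lower). Bars are exact 95% conditional binomial intervals. Angpt2 was at 2.36 with and -0.31 without a venular gene, and Gpihbp1 at 0.78 and 0.85.

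Of 30 tip and angiogenic genes, 28 could be compared in epithelial-low members. Angpt2 and Apln were at least 1.5-fold higher in Dll1+, none was lower, and the list median was 0.27. Esm1, a secreted proteoglycan of tip cells, stood at 1063 CPM in Dll1+ and 713 CPM in Dll1-, a log2 ratio of 0.58 (0.41 to 0.75). Cxcr4, the chemokine receptor of tip cells, stood at 233 CPM and 192 CPM with overlapping intervals. In all members 29 of these genes could be compared, with 2 higher, Aplnr lower and a median of 0.01, so the list median was near 0 over all members. Of 18 genes of VEGF and angiopoietin signaling, 12 could be compared in epithelial-low members, and Angpt2 alone passed 1.5-fold. The receptor Kdr stood at 1132 CPM in Dll1+ and 778 CPM in Dll1-, a log2 ratio of 0.54 (0.38 to 0.70). In epithelial-low members with no venular gene the Kdr ratio was -0.03 (-0.33 to 0.27). The decoy receptor Flt1 had a log2 ratio of 0.50 (0.36 to 0.64). The co-receptor Nrp1 stood at 675 CPM and 503 CPM. Tek, the angiopoietin receptor, stood at 88.5 CPM and 112 CPM, with overlapping counts of 60 and 76 UMIs.

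In epithelial-low members 17 of 25 capillary genes could be compared, 5 were at least 1.5-fold higher in Dll1+ (Gpihbp1, Fabp5, Cd300lg, Rbp7 and Cxcl12), Slc9a3r2 was lower, and the median was 0.36. Gpihbp1, which anchors lipoprotein lipase on capillary endothelium, stood at 1837 CPM in Dll1+ and 1059 CPM in Dll1-, a log2 ratio of 0.79 (0.66 to 0.93). It was detected in 83.7% and 70.0% of thinned cells, against 0.333% and 0.0975% of epithelial barcodes. Cd300lg, a capillary surface glycoprotein, stood at 457 CPM and 257 CPM. The water channel Aqp1 stood at 1340 CPM and 915 CPM. Fabp4, a fatty acid binding protein, stood at 1153 CPM and 1202 CPM, and Rgcc at 575 CPM and 569 CPM, both with overlapping intervals. Fabp5 and Rbp7 were also higher in Dll1+ than in Dll1- epithelial barcodes, at 738 and 333 CPM and at 219 and 16.3 CPM, and the part of such transcripts in the members was not tested. In the Dll1- library 42.6% of the Cxcl12 UMIs came from 1 cell.

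Notch pathway genes did not move as a group. Of 20 genes, 12 could be compared in epithelial-low members, 1 was higher, 1 was lower and the median was 0.04. Dll1 itself had 23 UMIs in Dll1+ and 18 UMIs in Dll1- epithelial-low members, 33.9 CPM (21.5 to 50.9) and 26.6 CPM (15.8 to 42.1). Over all members it stood at 29.4 CPM and 15.97 CPM, while epithelial barcodes stood at 51.2 CPM and 3.94 CPM. At this depth a difference of Dll1 within the endothelium was not detectable. The main endothelial ligand Dll4 stood at 361 CPM in Dll1+ and 284 CPM in Dll1-, a log2 ratio of 0.35 (0.07 to 0.63). The receptors Notch1 (237 CPM and 226 CPM) and Notch4 (189 CPM and 173 CPM) had overlapping intervals, and so did the target Hey1 (143 CPM and 151 CPM). The targets Nrarp, a feedback inhibitor, and Hes1, a repressor, differed in opposite directions. Nrarp stood at 178 CPM in Dll1+ and 102 CPM in Dll1-, a log2 ratio of 0.80 (0.37 to 1.25), and Hes1 at 223 CPM and 383 CPM, a log2 ratio of -0.78 (-1.08 to -0.49). Hes1 in all members was at -0.24, and Nrarp turned sign without a venular gene, as given above. With CPM taken per cell and averaged, the Hes1 ratio in epithelial-low members was smaller, at -0.27. The arterial gap junction gene Gja4 stood at 227 CPM in Dll1+ and 91.7 CPM in Dll1-, with 22.1% of its Dll1+ UMIs in 1 cell and a log2 ratio of 1.09 without the top cell of each library. Its share of thinned cells was nearly level, at 17.1% and 13.1%. The arterial transcription factor Sox17 stood at 79.6 CPM and 117 CPM. Sox18, a transcription factor of vessel development, stood at 507 CPM and 318 CPM, a log2 ratio of 0.67 (0.42 to 0.93).

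The interferon-stimulated genes did not move as one group. Those that differed most were Cxcl9 and Cxcl10, chemokines that attract T cells, and Igtp and Iigp1, GTPases that act on intracellular parasites. Their promoters are printed where the sequence table holds them, 250 bases before to 50 bases after the start of the gene, 5′ to 3′ on the strand of the gene, from RefSeq on GRCm38.p6. Cxcl9 lies on the minus strand at chr5:92328030-92328329, Cxcl10 on the minus strand at chr5:92348840-92349139 and Igtp on the plus strand at chr11:58199306-58199605. Capitals mark matches on either strand to a gamma-activated site (GAS, TTCNNNGAA), or to an interferon-stimulated response element (ISRE), 2 copies of GAAA with NN between them, both known as elements of interferon-induced promoters. A kB motif, GGG and TTTCC with NN between them, was also searched.
Cxcl9: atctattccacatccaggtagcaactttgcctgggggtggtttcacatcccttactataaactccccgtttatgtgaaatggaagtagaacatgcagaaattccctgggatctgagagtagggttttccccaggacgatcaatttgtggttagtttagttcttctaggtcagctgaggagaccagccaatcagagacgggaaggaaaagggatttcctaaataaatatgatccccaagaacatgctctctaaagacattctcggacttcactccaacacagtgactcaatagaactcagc
Cxcl10: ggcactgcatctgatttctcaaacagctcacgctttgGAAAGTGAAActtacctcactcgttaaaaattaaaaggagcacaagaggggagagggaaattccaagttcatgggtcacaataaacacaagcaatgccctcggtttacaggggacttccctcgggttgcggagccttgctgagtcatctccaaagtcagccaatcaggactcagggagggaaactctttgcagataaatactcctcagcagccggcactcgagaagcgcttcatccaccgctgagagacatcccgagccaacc
Igtp: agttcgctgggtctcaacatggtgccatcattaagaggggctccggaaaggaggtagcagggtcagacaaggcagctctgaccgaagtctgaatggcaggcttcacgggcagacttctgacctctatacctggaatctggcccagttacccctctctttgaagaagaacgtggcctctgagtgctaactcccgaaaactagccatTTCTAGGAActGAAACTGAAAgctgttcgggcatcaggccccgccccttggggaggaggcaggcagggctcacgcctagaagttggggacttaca
The Igtp window held 1 GAS and 1 ISRE match that do not overlap, the Cxcl10 window 1 ISRE match, and the Cxcl9 window none of the letters searched. The kB letters were in none of the printed windows, and kB sites of other letters were not searched. Of 32851 promoter windows of this length, 8.30% held the GAS letters, 3.44% the ISRE letters and 1.63% the kB letters.

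Cxcl9 stood at 630 CPM (427 UMIs) in Dll1+ epithelial-low members and at 103 CPM (70 UMIs) in Dll1- ones, a log2 ratio of 2.59 (2.24 to 2.99). A single cell held 26.9% of the Dll1+ UMIs, and without the top cell of each library the ratio was 2.36. Cxcl9 was detected in 19.5% of thinned Dll1+ cells (24 cells) and 13.1% of thinned Dll1- cells (17 cells), with overlapping intervals. Its shares of epithelial barcodes were 3.94% and 0.0487%. Cxcl10 stood at 450 CPM and 115 CPM (1.95, 1.60 to 2.34), Iigp1 at 342 CPM and 73.9 CPM (2.19, 1.76 to 2.68) and Igtp at 85.5 CPM and 14.8 CPM (2.45, 1.55 to 3.67). Of 33 interferon-stimulated genes, 26 could be compared, 8 were at least 1.5-fold higher in Dll1+ (among them also Rsad2, Gbp4 and Irgm1), Ifi44 and Gbp3 were lower, and the median was -0.08. Ifitm3 (2639 CPM and 3608 CPM), Bst2 (680 CPM and 991 CPM) and Isg15 (296 CPM and 373 CPM) did not pass 1.5-fold. In all members 31 could be compared, 10 were higher, 2 lower and the median was 0.26.

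Several of these genes were also higher in other classes of the Dll1+ library. Cxcl10 stood at 1008 CPM in Dll1+ and 20.8 CPM in Dll1- epithelial barcodes, Iigp1 at 346 and 72.2 CPM, and Igtp at 209 and 56.2 CPM. In thinned Dll1+ cells Cxcl10 was detected in 18.7% of epithelial-low members and 37.4% of epithelial barcodes, and Iigp1 in 28.5% and 39.0%. For these genes transcripts of members and free RNA from tumor cells cannot be told apart. Cxcl9 stood at 67.1 CPM in Dll1+ epithelial barcodes, below the members, and at 317 CPM and 42.3 CPM in Dll1+ and Dll1- pericytes in sum over all such cells. In epithelial-low venular endothelial cells it stood at 1138 CPM in Dll1+, above the members, and at 11.6 CPM in Dll1-. Of the MHC class II genes, which present antigen and respond to interferon gamma, only Cd74 had enough UMIs in epithelial-low members, with 122 UMIs in Dll1+ and 6 UMIs in Dll1-, or 180 CPM and 8.87 CPM. It was detected in 7.32% of thinned Dll1+ members and 14.2% of Dll1+ epithelial barcodes, and a share below that of another class is not read as expression here. The leukocyte genes Ptprc and Csf1r had 0 UMIs in members of both libraries, and the 8 leukocyte markers summed to 47.2 CPM in Dll1+ and 16.3 CPM in Dll1- epithelial-low members. None of 14 MHC class I genes passed 1.5-fold, and the median was 0.15. H2-K1 stood at 1544 CPM and 1322 CPM, and B2m at 2486 CPM and 2159 CPM.

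Tnfrsf9 (4-1BB), a costimulatory receptor of the tumor necrosis factor family, had the highest ratio among epithelial-low members that the naming rule gave. It stood at 91.4 CPM (62 UMIs) in Dll1+ and 13.3 CPM (9 UMIs) in Dll1-, a log2 ratio of 2.69 (1.76 to 3.97), with 77.8% of the few Dll1- UMIs in 1 cell. Leukocyte barcodes stood at 28.7 CPM and 48.1 CPM and epithelial barcodes at 0.777 CPM and 2.09 CPM. Jam3, a junction protein (76.7 CPM and 20.7 CPM), Acer2, a ceramidase (85.5 CPM and 23.7 CPM), Tril (64.9 CPM and 20.7 CPM), Itga3, an integrin subunit (78.1 CPM and 25.1 CPM) and Fam102a (69.3 CPM and 23.7 CPM) completed the 12 highest. Vcam1, a leukocyte adhesion receptor, had 39 and 10 UMIs in epithelial-low members, too few to enter the comparison.

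Genes lower in Dll1+ included growth factor, chemokine and NF-kB response genes. Pdgfa, a growth factor for mesenchymal cells, stood at 39.8 CPM in Dll1+ and 148 CPM in Dll1- epithelial-low members, a log2 ratio of -1.87 (-2.56 to -1.27). Cd40, a costimulatory receptor, stood at 16.2 CPM and 60.6 CPM, and the neutrophil chemokine Cxcl1 at 245 CPM and 730 CPM, a log2 ratio of -1.57 (-1.84 to -1.32). The Cxcl1 ratio was -2.07 in epithelial-low members with 1 venular gene and -0.53 (-0.98 to -0.09) in those with none. Of 16 NF-kB response genes, 9 could be compared, 4 were at least 1.5-fold lower in Dll1+ (Nfkbia, Nfkbiz, Tnfaip3 and Cxcl1), Nfkb1 was higher, and the median was -0.53. Nfkbia, the inhibitor induced by NF-kB itself, stood at 1110 CPM and 1773 CPM. All 18 immediate early and stress genes could be compared; 5 were lower in Dll1+ (Junb, Egr1, Ier3, Atf3 and Hspb1), none was higher, and the median was -0.26. Ier3 stood at 327 CPM and 909 CPM, while Fos stood at 1651 CPM and 1937 CPM. In Dll1+ and Dll1- epithelial barcodes Cxcl1 stood at 435 CPM and 941 CPM, Ier3 at 2730 CPM and 3119 CPM and Hspb1 at 1124 CPM and 2368 CPM. The part of epithelial transcripts in the members' values was not tested. Egr1 had opposite signs in the 2 sets of cells, at 588 CPM and 356 CPM in Dll1+ and Dll1- members and at 128 CPM and 238 CPM in epithelial-low ones. Tnip1 (31.0 CPM and 88.7 CPM) and Map3k8 (35.4 CPM and 97.6 CPM), regulators of NF-kB signaling, were also among the 12 lowest.

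Of 18 basement membrane genes, 15 could be compared in epithelial-low members, with Lama5 and Lamb2 higher in Dll1+, Agrn lower and a median of 0.21. Col4a1, the main collagen of the vessel basement membrane, stood at 4823 CPM in Dll1+ and 4230 CPM in Dll1-. Of 9 integrin genes compared, Itga1, Itga3 and Itga9 were higher in Dll1+, none was lower, and the median was 0.42. Itga1, the collagen-binding subunit, stood at 143 CPM and 56.2 CPM, a log2 ratio of 1.33 (0.79 to 1.93), and at 928 CPM and 633 CPM in pericytes. Among 15 matrix proteases and their regulators, Adamts1 and Thbs1 were higher, and 4 were lower, among them Adamts4, Timp1 and Timp2. The fibroblast markers Col1a1, Dcn and Col3a1 were also lower in Dll1+ epithelial-low members. The 6 fibroblast markers summed to 158 CPM in Dll1+ and 662 CPM in Dll1-. The part of fibroblast transcripts in the members' values was not tested. Ednrb, the endothelin receptor of endothelium, stood at 436 CPM and 232 CPM, a log2 ratio of 0.91 (0.63 to 1.2). The cyclin gene Ccnd1, listed with the Wnt genes, stood at 526 CPM and 285 CPM.

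Cell cycle genes differed between the libraries over all members and much less in epithelial-low ones. Over all members, 15 of 17 G2 and M phase genes passed 1.5-fold higher in Dll1+ (median 1.24), as did 8 of 16 genes of S phase (median 0.59). In epithelial-low members 4 and 6 genes could be compared, with medians of 0.53 and 0.02, Cdk1 and Ube2c higher in Dll1+ and Dut lower. The topoisomerase gene Top2a stood at 48.7 CPM (33 UMIs) and 48.8 CPM (33 UMIs). The 12 highest genes over all members began with Egr4 (71.6 CPM and 0 CPM) and Cxcl5 (46.1 CPM and 0 CPM), and the 12 lowest with Saa3 (2.71 CPM and 52.0 CPM) and Krt7, a keratin of epithelia (19.8 CPM and 199.9 CPM). Of these 24 genes, only Cxcl1 and Cd40 were also among the 12 highest or lowest in epithelial-low members. Mgp, a matrix protein, had 896 and 7 UMIs over all members, and 97.2% of the 321 UMIs in Dll1+ epithelial-low members came from 1 cell. Of 16 glycolysis genes over all members 1 was higher and 2 lower, while of 13 in epithelial-low members Slc2a1, Pfkl, Pgk1 and Pkm were higher and Pfkfb3 lower.

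In epithelial-low members, of the 20 pan-endothelial genes none passed 1.5-fold (median 0.12), and Igfbp3, a binding protein of insulin-like growth factors listed with the tip genes, stood at 5507 CPM in Dll1+ and 3735 CPM in Dll1-. Of 11 arterial genes Gja4, Mgp and Clu were higher, and Clu, a secreted chaperone, stood at 376 CPM and 148 CPM, a log2 ratio of 1.34 (1.01 to 1.70). Of 10 venous genes Cd38 was higher and Il6st and Ptgs1 were lower (median -0.32). Of 19 endothelial transcription factors Sox18 alone passed, of 10 shear response genes Klf4 was lower, and of 8 genes of caveolae and diaphragms Cavin2 was higher. Of 14 genes of TGF-beta and BMP signaling Smad7, Id2 and Ccn2 were higher and 1 was lower. None of 12 unfolded protein response genes and none of 4 genes of endothelial to mesenchymal transition passed in either direction.

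**Figure D4:**
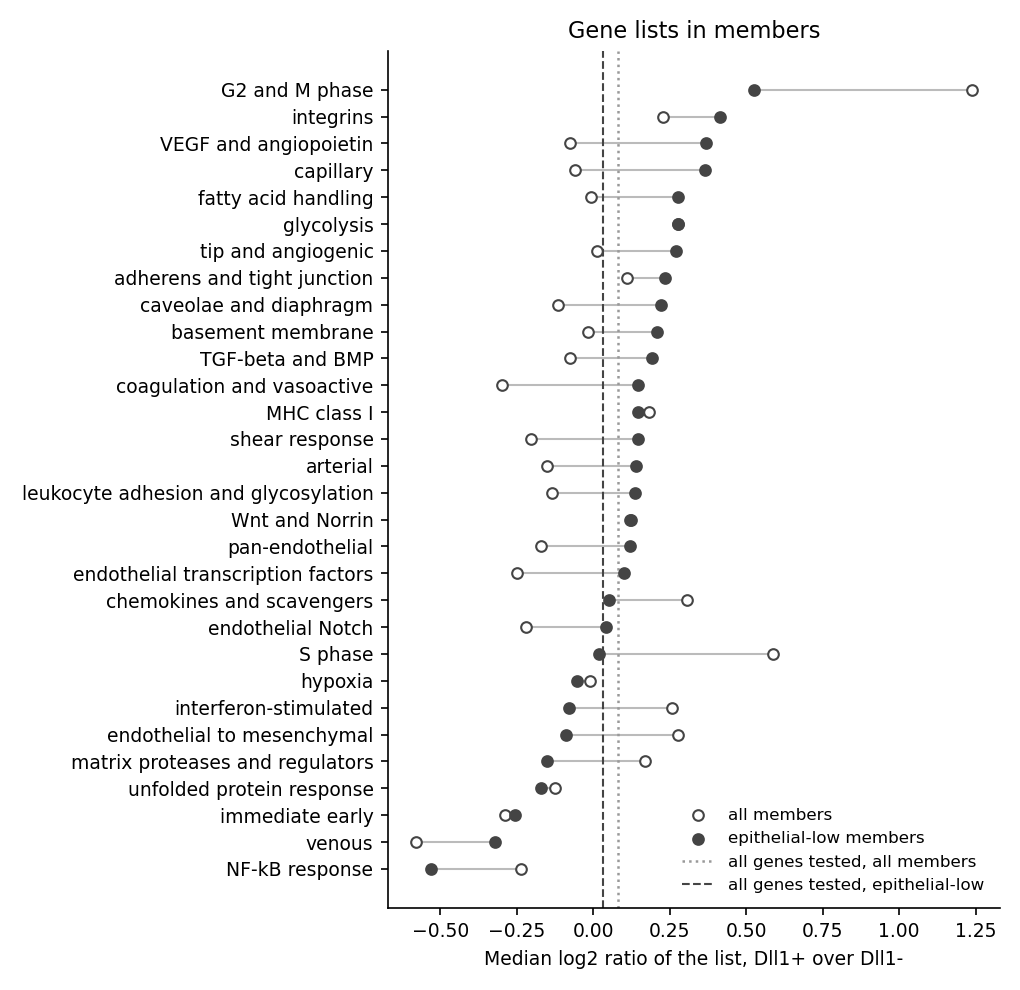
Median log2 ratio, Dll1+ over Dll1- (horizontal axis), of each gene list with at least 4 genes compared, in all members (open points) and epithelial-low members (filled points). Vertical lines mark the median of all genes compared, 0.08 in all members and 0.03 in epithelial-low members. The G2 and M phase list was at 1.24 and 0.53, the capillary list at -0.06 and 0.36.

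Clustering the members of both libraries, without the genes of the rule, gave 6 sub-states. Sub-state 1 was led by Cxcl9, Angpt2, Tnfrsf9, Trp53i11 and Cxcr4, with 85 Dll1+ and 50 Dll1- cells. It was called tip-like for Angpt2, Trp53i11 and Cxcr4. Apln was also higher there than in sub-state 2 in both libraries, but Kdr, Dll4 and the tip gene Unc5b were lower. In Dll1+ and Dll1-, Kdr stood at 964 and 516 CPM in sub-state 1 and at 1450 and 1187 CPM in sub-state 2. Dll4 stood at 382 and 293 CPM against 447 and 485 CPM. Sub-state 2 was led by Gja4, Stmn2, Dusp2, Socs3 and Efnb2, with 57 and 77 cells, and was called arterial-like for Gja4 and Stmn2. The immune-related Icam1 was also among its leading genes. Arterial Sox17 was lower there than in sub-state 1, at 56.4 and 116 CPM against 194 and 129 CPM in Dll1+ and Dll1-. The venular marker Lrg1 was higher, at 842 and 1063 CPM against 239 and 401 CPM. Sub-state 3 was led by Prcp, Aplnr, Nr2f2 and Tek, with 47 and 74 cells, and was left unnamed. Sub-state 4 was led by Mgp, Spp1, Acta2 and Col1a2 with 73 and 6 cells, and sub-state 5 by Krt7, Csn1s1 and Saa1 with 8 and 45 cells. Both had a median of 6 epithelial genes, and 50 and 46 of their cells had removed doublet scores. Sub-state 6 was cycling, led by Hist1h2ae, Cenpf, Top2a and Tpx2, with 17 and 13 cells. Since genes that lead the sub-states differed between the libraries, their sizes are a description. Clustering the epithelial-low members alone gave 5 groups, of which the one with Angpt2, Apln, Cxcr4 and Kit among its leading genes held 46 Dll1+ and 36 Dll1- cells.

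Levels by library within sub-states are a description, since the sub-states were made from the same counts. A finer clustering gave a group with Angpt2 and Tnfrsf9 among its leading genes, of 60 Dll1+ and 8 Dll1- cells. Another, led by Cxcl9 and Cd74, held 24 and 6 cells, and one with Pgf and Adm among its leading genes 19 and 40. The part of such finer groups in the values below was not tested. In tip-like cells Angpt2 stood at 546 CPM in Dll1+ and 202 CPM in Dll1-, a log2 ratio of 1.43 (1.02 to 1.87), and Apln at 708 CPM and 272 CPM (1.38, 1.02 to 1.76). In arterial-like cells Angpt2 stood at 246 CPM and 32.1 CPM (2.90, 1.87 to 4.21), while Apln had only 11 and 12 UMIs. In sub-state 3 Apln stood at 456 CPM and 191 CPM (1.25, 0.73 to 1.80). Gja4 stood at 656 CPM and 205 CPM in arterial-like cells (1.68, 1.22 to 2.17), and had 23 and 0 UMIs in cycling cells, 18 and 1 UMIs in sub-state 4, 0 and 16 UMIs in sub-state 5 and 8 and 10 UMIs in tip-like cells. Cxcl9 stood at 1145 CPM and 157 CPM in tip-like cells (2.86, 2.43 to 3.34) and at 76.0 CPM and 52.7 CPM in sub-state 3 (0.52, -0.67 to 1.73). Cxcl1 was lower in Dll1+ in tip-like and arterial-like cells, at log2 ratios of -2.21 and -2.40. In sub-state 3 it stood at 163 CPM and 118 CPM (0.46, -0.32 to 1.26). The 3 tip genes Pgf, Adm and Cxcr4 were not higher in Dll1+ tip-like cells: Pgf, a VEGF family ligand, stood at 34.5 CPM in Dll1+ and 157 CPM in Dll1-, the vasodilator peptide gene Adm at 259 CPM and 418 CPM (-0.69, -1.07 to -0.31) and Cxcr4 at 311 CPM and 328 CPM (-0.08, -0.46 to 0.31).

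**Figure D5:**
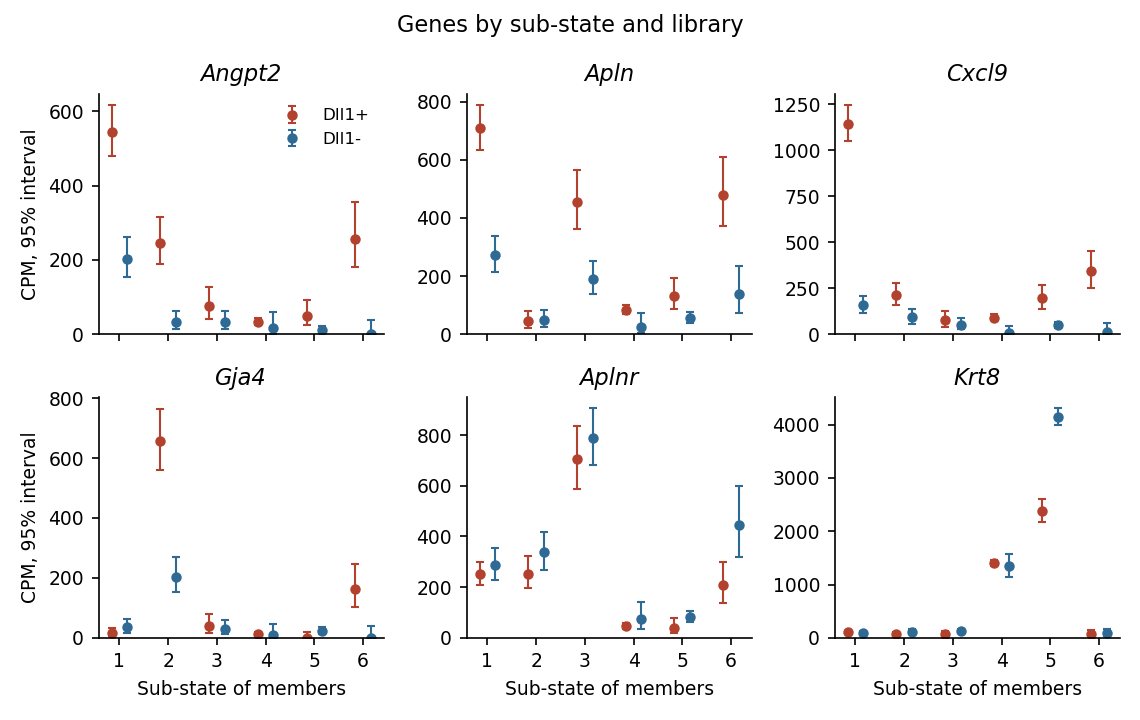
Level of 6 genes (vertical axes, CPM with exact 95% Poisson intervals) in the 6 sub-states of members (horizontal axis), for Dll1+ (left point) and Dll1- (right point). Angpt2 and Apln were higher in Dll1+ in the tip-like sub-state 1, Gja4 in the arterial-like sub-state 2, Aplnr was highest in sub-state 3, and Krt8 stood at 1405 and 1348 CPM in sub-state 4 and 2381 and 4151 CPM in sub-state 5.

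Detection of pairs of genes in the same cell is given as a description. In thinned epithelial-low members of the Dll1+ library, Apln was detected in 66.7% of 36 cells with an Angpt2 UMI and 31.0% of 87 cells without one, and in the Dll1- library in 45.5% of 11 and 12.6% of 119 cells. Esm1 followed, at 77.8% and 34.5% in Dll1+ and 72.7% and 35.3% in Dll1-, and Cxcr4 at 52.8% and 20.7% in Dll1+ and 63.6% and 18.5% in Dll1-. In the Dll1- library the intervals of cells with and without an Angpt2 UMI overlapped for Apln and Esm1. Aplnr was detected in 25% of Dll1+ cells with an Angpt2 UMI and 41.4% of those without, and in 18.2% and 52.9% of Dll1- cells, with overlapping intervals. Hey1 was detected in 52.4% of Dll1+ cells with a Gja4 UMI and 16.7% of those without. In Dll1- cells its shares were 47.1% and 17.7%, with overlapping intervals. Stmn2, another arterial gene, was detected in 4.76% of 21 Dll1+ cells with a Gja4 UMI and 7.84% of 102 without. In Dll1- cells it was detected in 23.5% of 17 and 5.31% of 113. The Stmn2 intervals overlapped in both libraries. Iigp1 was detected in 58.3% of 24 Dll1+ cells with a Cxcl9 UMI and 21.2% of 99 without, against 11.8% of 17 and 14.2% of 113 Dll1- cells.

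Set against the 54 Dll1+ and 82 Dll1- venular endothelial cells, members had higher levels of several tip and arterial genes in both libraries. The arterial genes Fbln2 and Fbln5 were lower in members. Of 2725 genes compared between epithelial-low cells of both kinds, 65 (2.39%) were at least 2-fold higher in members in both libraries and 6 (0.22%) at least 2-fold lower. Over all cells of both kinds the counts were 40 of 5921 (0.676%) and 12 (0.203%). Esm1 in epithelial-low cells stood at 1063 CPM in Dll1+ members and 120 CPM in Dll1+ venular cells, and at 713 CPM and 27.1 CPM in Dll1-. Angpt2 stood at 351 CPM and 35.1 CPM in Dll1+ and at 93.1 CPM and 11.6 CPM in Dll1-. Cxcr4, the guidance receptor Unc5b and Gja4 were also among the 12 highest. The adhesion receptor Icam1 and Fbln2, a matrix protein of the arterial list, were lower in members. Icam1 stood at 206 CPM and 471 CPM in Dll1+ and 299 CPM and 1092 CPM in Dll1-. Fbln2 stood at 32.4 CPM and 246 CPM in Dll1+ and 26.6 CPM and 178 CPM in Dll1-. Over all cells of both kinds, Fbln5 stood at 20.5 CPM and 83.9 CPM in Dll1+ and 16.6 CPM and 43.5 CPM in Dll1-. Apln did not set members apart in the Dll1- library, at 149 CPM and 159 CPM, and stood at 472 CPM and 221 CPM in Dll1+. Selp, Sele and Ackr1 define the venular cells, so their difference is no result. Vwf, which is in the same rule, stood at 656 CPM and 479 CPM in Dll1+ and Dll1- members and at 551 CPM and 260 CPM in venular cells.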

How the data were processed

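The deposited files hold raw UMI counts per gene and barcode, and per the file headers Cell Ranger 4.0.0 made them. The submitters' processing notes name mm10 as the build. Libraries used the 10x v3 chemistry, per the labels' protocols. No source used here gives its settings or annotation. Of 32285 gene IDs, 32235 were found in GENCODE M21. The Dll1+ library held 117230907 UMIs in 13819 barcodes and the Dll1- library 135960457 UMIs in 13097 barcodes. Barcodes were kept with at least 1000 UMIs, 500 genes and at most 20% mitochondrial UMIs.

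The members, gene lists and alternatives were chosen with earlier results of these data known. UMIs were summed over members of a library, as CPM. Genes with at least 50 UMIs over both libraries were compared as log2 of CPM plus 1, past 1.5-fold for lists and 2-fold for single genes. Intervals are exact Poisson for CPM, Clopper-Pearson for shares and conditional binomial for ratios, without the added 1. Named genes were the rule and marker genes, list members past 1.5-fold, 2 abundant genes a list, and the 12 highest and lowest at 20 CPM or more, leaving out genes over 5 times higher in another class. Other list genes (among them Dll1, Pgf, Tek, Sox17 and Vcam1) and the venular split were given for their role, after their values were seen. Members were clustered with scanpy 1.11.5 and leidenalg 0.10.2 (Python 3.11.15) on 1500 variable genes, 20 components and 15 neighbours at a resolution of 0.5. Scrublet's automatic threshold marked no barcodes, so as an alternative the highest scores were removed at 0.8% per 1000 barcodes (896 Dll1+ and 989 Dll1- barcodes). TMM (edgeR 4.0.16) and size factors (DESeq2 1.42.0) were alternative scalings. Some genes are not reported here.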

Additional observations from a re-analysis of the deposited data

How the results depend on the processing

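No paired analysis was possible because each group is 1 library. Over all members, 406 genes passed 2-fold higher and 94 lower in Dll1+. These counts became 218 and 56 with 10 CPM added, 1573 and 507 with no count minimum, 221 and 54 at 100 UMIs, 72 and 39 after thinning, 245 and 32 with the highest doublet scores removed, 51 and 41 in epithelial-low members, 70 and 42 without members of 4 or more epithelial genes, and 75 and 30 without sub-states 4 and 5. With 4 or more endothelial genes 251 were higher, and with no venular gene 205 were lower. The share of kept barcodes that were members, 0.33 percentage points higher in Dll1+, became -0.129 in epithelial-low members. The tip list median of 0.01 became 0.27 after thinning and in epithelial-low members, 0.22 with 4 endothelial genes, 0.29 without members of 4 or more epithelial genes, 0.33 without sub-states 4 and 5 and -0.62 with no venular gene. The capillary median of -0.06 became 0.36 in epithelial-low members, 0.35 without sub-states 4 and 5 and -0.80 with no venular gene. The Notch median of -0.22 became 0.16 after thinning and -0.89 with no venular gene, and the interferon median of 0.26 became -0.081 in epithelial-low members. Counts against venular cells were 40 higher and 12 lower, and 65 and 6 in epithelial-low cells. The S phase median reversed to -0.23 after thinning, and Mia to -0.00297 in epithelial-low members. With no venular gene, Angpt2 reversed to -0.12, Jam3 to -0.0256, Gja4 to -0.96 and Nrarp to -0.32. Within epithelial-low members with no venular gene Angpt2 (-0.31), Nrarp (-0.23) and Saa2 (0.17) reversed, as did Basp1 (0.45) with doublet scores removed. At a resolution of 0.3 the share difference of the sub-state with most tip markers, 10.75 percentage points, reversed to -9.62, where that sub-state held 65.9% of Dll1+ and 75.5% of Dll1- members. The cause of these changes was not tested. The limit of 4 epithelial genes, the removal of sub-states or single top cells, and the repeats within epithelial-low members were added after seeing the data. In epithelial-low members the log2 ratio of Iigp1 stayed between 1.97 and 2.42 over 16 alternatives, Cxcl10 between 1.63 and 2.32, and Apln between 1.01 and 1.84. Over all members Apln ranged from 0.02 to 1.65 over 18 alternatives and Gpihbp1 from 0.15 to 0.89, both lowest with no venular gene. TMM and DESeq2 size factors shifted all ratios by -0.09 and -0.08. With 1 library per group no replicate could be left out, and genes under 50 UMIs were not compared.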
